A study of Mus musculus with 24 samples.

Results

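The gene-specific dependence of the Dexa response on Cop1 was measured as an interaction: the log2 effect of Dexa in siCop1 cells minus the log2 effect of Dexa in siCTRL cells, with all cells in DMSO. The cells were wild-type mouse embryonic fibroblasts, connective tissue cells grown from embryos, and 12 of the 24 libraries of the series entered this term. Those 12 fall into 4 groups with 3 replicates each: siCTRL with DMSO, siCTRL with DMSO and Dexa, siCop1 with DMSO, and siCop1 with DMSO and Dexa. From the label names, siCTRL was read as a non-targeting control siRNA and siCop1 as an siRNA against Cop1. The other 12 libraries repeat the 4 groups with KL001, a small molecule that stabilises cryptochromes, in place of DMSO. The sources used here give no doses or exposure times. The labels do not say whether replicates came from separate cultures, so p-values measure only the spread between these samples.

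Cop1 recruits substrates to a CRL4 ubiquitin ligase, which marks transcription factors, including ETS family members and c-Jun, for degradation. The name Dexa is that of the labels. It is the usual short form of dexamethasone, a synthetic glucocorticoid. Glucocorticoids bind the glucocorticoid receptor, which Hsp90 and its partner proteins hold ready in the cytoplasm, and the bound receptor enters the nucleus to raise some genes and lower others.

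Of 14772 genes tested, 99 (0.670%) had a term below an adjusted p of 0.05, by the quasi-likelihood test of edgeR. There were 43 terms above 0 (0.291% of genes tested) and 56 below 0 (0.379%), and 1123 genes were under an unadjusted p of 0.05. Most terms were small: the sizes ran from 0.20 to 1.68 on the log2 scale with a median of 0.39, 36 were at least 0.5 and 6 at least 1. By comparison, Dexa alone changed 3957 genes in siCTRL (26.8%) and 3496 in siCop1 (23.7%). Of the 3957 genes changed in siCTRL, 2.30% had a called term, and of the 425 changed by at least 2-fold, 43 (10.1%) did. The median term over all genes tested was 0.01.

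The 99 genes were grouped by how Dexa acted in each arm, where an effect counts when it passes an adjusted p of 0.05. A response was called blunted when Dexa acted the same way in both arms but with a smaller log2 effect in siCop1, and this held for 64 genes, 43 of them induced by Dexa and 21 repressed. It was called lost, for 13 genes, when Dexa acted in siCTRL and did not pass the test in siCop1, and reversed, for 3 genes, when it acted in opposite directions. It was enhanced in 11 genes, with a larger effect in siCop1, and gained in 8, where it passed the test in siCop1 alone. No called gene fell outside these classes. The size of the Dexa effect was smaller in siCop1 for 79 of the 99 genes. The classes were formed from these effects, so their counts are a description.

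**Figure D1:**
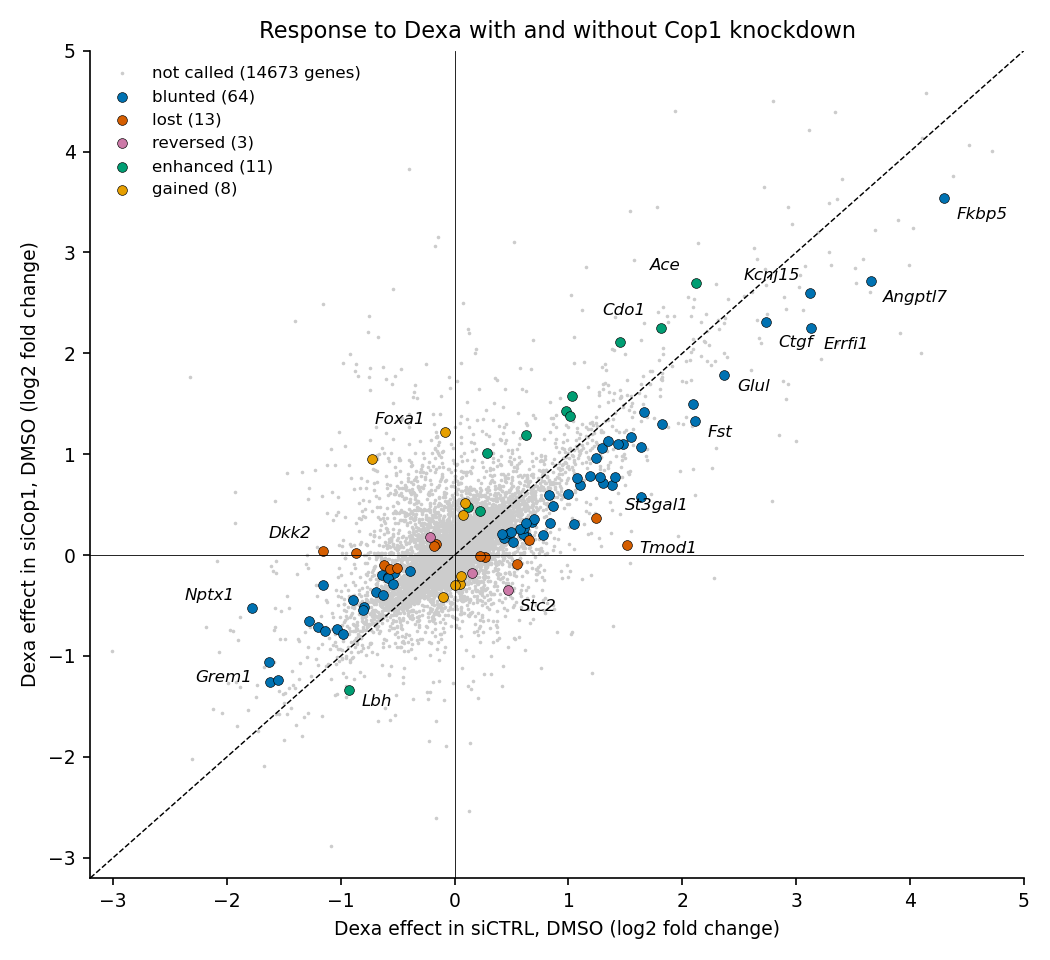
Each point is 1 of the 14772 genes tested, with the log2 effect of Dexa in siCTRL on the horizontal axis and in siCop1 on the vertical axis, both in DMSO; the dashed line marks equal effects. Called genes are coloured by class and uncalled genes are grey, of which 15 lie outside the plotted range. By the definition of the class, the 64 blunted genes sit between the dashed line and the horizontal zero line.

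The targeted gene, listed by the older symbol Rfwd2, was checked first. Its level was 26.9 to 29.7 CPM (counts scaled to the size of the library) in the 3 siCTRL libraries and 25.0 to 26.4 CPM with Dexa. In siCop1 it was 4.66 to 5.0 CPM, and 4.41 to 4.86 CPM with Dexa. The knockdown was of like depth in both states: the term of Rfwd2 was 0.08 ± 0.11 (SE), adjusted p = 0.942.

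The 12 libraries held between 23373824 and 27875023 counts (median 25425579). The fibroblast collagen Col1a1 stood at 16345 to 23502 CPM, while the fibroblast proteoglycans Dcn and Lum were at or below 4.04 and 1.03 CPM. Both siCTRL replicate 1 libraries stood apart from their group. Their counts differed from those of replicates 2 and 3 with a chi-square per degree of freedom of 4.63 to 5.54, against 1.57 to 2.30 for every other pair within the 4 groups. Without both of them 98 genes were called, 73 of them the same, with 30 terms above 0 and 68 below. The summed level of 10 heart muscle markers was 22.5 to 64.0 CPM in siCTRL and at most 4.12 CPM in the siCop1 libraries. In siCTRL with Dexa it was 6.62 to 87.5 CPM with a median of 7.82, and the highest value was that of replicate 2. The summed level of 7 squamous epithelium markers reached 75.2 CPM in siCop1 Dexa replicate 1 and at most 13.9 CPM elsewhere. None of the markers of these or the other 7 lists had a called term, and the part of such cells in the 99 terms was not tested. In bulk RNA, fewer cells of a type and less RNA per cell cannot be told apart.

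The strongest blunting by adjusted p lay in 2 glucocorticoid-induced genes. Fkbp5 encodes a partner protein of Hsp90 that lowers hormone binding by the glucocorticoid receptor. Its levels were 37.3, 35.4 and 36.5 CPM in siCTRL and 727, 715 and 714 CPM with Dexa, and 52.3, 50.0 and 50.1 CPM in siCop1 and 602, 584 and 584 CPM with Dexa. Without Dexa all 3 siCop1 libraries were above all 3 siCTRL libraries, and with Dexa all 3 were below them. Dexa thus raised Fkbp5 19.7-fold in siCTRL and 11.6-fold in siCop1, with a term of -0.76 ± 0.05 (SE; adjusted p = 2.06e-11, edgeR).

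Errfi1 encodes a feedback inhibitor of the EGF receptor. It stood at 27.5, 28.9 and 28.3 CPM in siCTRL and at 51.8, 50.3 and 51.5 CPM in siCop1. With Dexa it reached 249, 250 and 241 CPM in siCTRL and 245, 251 and 236 CPM in siCop1. The arms were apart without Dexa and overlapped with it. The fold change was 8.74 in siCTRL and 4.76 in siCop1, a term of -0.88 ± 0.06 (adjusted p = 2.28e-11, edgeR).

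Glul, the enzyme that makes glutamine, rose from 11, 11.5 and 11 to 59.7, 57.2 and 56.3 CPM in siCTRL. In siCop1 it rose from 14.4, 16.1 and 14.5 to 51.9, 51.0 and 52.5 CPM. It was higher in every siCop1 library without Dexa and lower in every one with it, and its term was -0.58 ± 0.08 (adjusted p = 0.000162, edgeR).

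These genes belong to a list of 24 genes of the glucocorticoid response, all tested. Dexa raised 21 of them in siCTRL and 21 in siCop1 and lowered 1 in each, where it raised 12.7% of all genes tested in siCTRL and 12% in siCop1 and lowered 14.1% and 11.6%. The term passed the test for 4 (Fkbp5, Errfi1, Glul and Ddit4), each time below 0, and for none above 0. A called term was found in 0.670% of all genes, and in 10.1% of those changed at least 2-fold by Dexa in siCTRL. The median term of the list was -0.05, beside 0.01 for all genes. Ddit4, an inhibitor of mTORC1 signalling, had a term of -0.26 ± 0.06 (adjusted p = 0.0316, edgeR). Its call was lost without any 1 of 7 libraries (siCTRL replicates 2 and 3, siCTRL Dexa replicate 3, siCop1 replicates 1 and 2, and siCop1 Dexa replicates 2 and 3), at adjusted p of 0.0508 to 0.139. Of the list genes whose term was not called, some had nearly equal Dexa effects in both arms. The log2 effect was 2.73 in siCTRL and 2.84 in siCop1 for Tsc22d3, which encodes the glucocorticoid-induced leucine zipper protein. It was 4.11 and 4.13 for the transcription factor Zbtb16, 2.22 and 2.22 for the clock gene Per1, 3.19 and 3.20 for the metallothionein Mt2, and 1.82 and 1.77 for the kinase Sgk1. In others the effect in siCop1 was the smaller value without passing the test. It was 0.93 and 0.67 for the phosphatase Dusp1 (adjusted p of the term 0.078, edgeR), 0.88 and 0.65 for the NF-kB inhibitor Nfkbia (0.0973), 1.51 and 1.24 for the receptor kinase Mertk (0.297), 2.0 and 1.73 for the metallothionein Mt1 (0.537), and 2.75 and 2.39 for the transcription factor Cebpd (0.58). For the kinase Pdk4 it was the larger, at 3.41 and 3.73 (0.644). Of 9 tested genes of the receptor and its chaperones none had a called term, and Nr3c1, the receptor itself, fell with Dexa by 0.64 in siCTRL and by 0.51 in siCop1 on the log2 scale.

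RefSeq promoters (GRCm38.p6, 250 bases before to 50 after a gene's start) were read for 74 of the 99 genes, in 95 windows. The windows of Errfi1 and Glul are shown because they hold a match near the start, at chr4:150854820-150855119 (plus strand, one of 2 Errfi1 starts) and chr1:153899679-153899978 (plus strand). Capitals mark, in Errfi1, a cyclic AMP response element (TGACGTCA, first base at -51) and a TATA box (TATAAA, first base at -28). In Glul they mark a glucocorticoid receptor palindrome (ACANNNTGT, first base at -25).
Errfi1: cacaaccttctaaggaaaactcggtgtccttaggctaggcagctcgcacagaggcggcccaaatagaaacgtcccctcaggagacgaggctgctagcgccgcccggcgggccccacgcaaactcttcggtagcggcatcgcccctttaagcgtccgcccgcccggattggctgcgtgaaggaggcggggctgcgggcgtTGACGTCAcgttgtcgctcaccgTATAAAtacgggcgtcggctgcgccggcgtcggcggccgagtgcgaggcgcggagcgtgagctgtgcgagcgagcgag
Glul: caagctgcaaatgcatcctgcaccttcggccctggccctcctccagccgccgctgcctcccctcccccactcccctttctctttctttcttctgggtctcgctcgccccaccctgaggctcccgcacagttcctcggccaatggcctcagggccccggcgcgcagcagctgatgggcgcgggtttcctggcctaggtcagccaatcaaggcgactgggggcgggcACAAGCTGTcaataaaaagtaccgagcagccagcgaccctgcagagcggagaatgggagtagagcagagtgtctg
For each motif the share of the 95 windows is given beside that of all windows. On either strand, ACANNNTGT was in 5 of the 95 windows (5.26%) and in 6.85% of all 32851 windows, and TGACGTCA in 2 (2.11%) and 1.79%. The AP-1 site TGANTCA was in 7.37% against 7.81%, the TEAD site GGAATG in 9.47% against 14.7%, and TATAAA in 14.7% against 13.6%. A match is a description of these letters, and the window of Fkbp5 held none of the 5 motifs.

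Among the other Dexa-induced, blunted genes were secreted and matrix-associated proteins. Ctgf, a matricellular protein, rose from 165, 165 and 164 to 1071, 1113 and 1111 CPM in siCTRL, and from 190, 189 and 180 to 911, 941 and 929 CPM in siCop1. The arms did not overlap in either state, and their order turned with Dexa. Its term was -0.42 ± 0.05 (adjusted p = 5.85e-06, edgeR). Fst, the activin antagonist follistatin, rose from 11.8, 12.8 and 13.9 to 56.7, 53.8 and 55.3 CPM in siCTRL but from 16.1, 14.8 and 16.2 to only 37.6, 41.5 and 39.3 CPM in siCop1. Its term was -0.78 ± 0.08 (adjusted p = 4.36e-07, edgeR). Angptl7, a secreted angiopoietin-like protein, had the largest blunted induced term of those named by rule, at -0.94 ± 0.12 (adjusted p = 7.58e-05, edgeR), but its levels were higher in siCop1 throughout. It rose from 5.48, 5.35 and 5.84 to 78.8, 66.7 and 64.5 CPM in siCTRL, and from 25.0, 23.2 and 25.3 to 162, 168 and 153 CPM in siCop1. The gain in CPM was therefore larger in siCop1, at 136 against 64.4, although the fold was smaller, at 6.55 against 12.6.

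**Figure D2:**
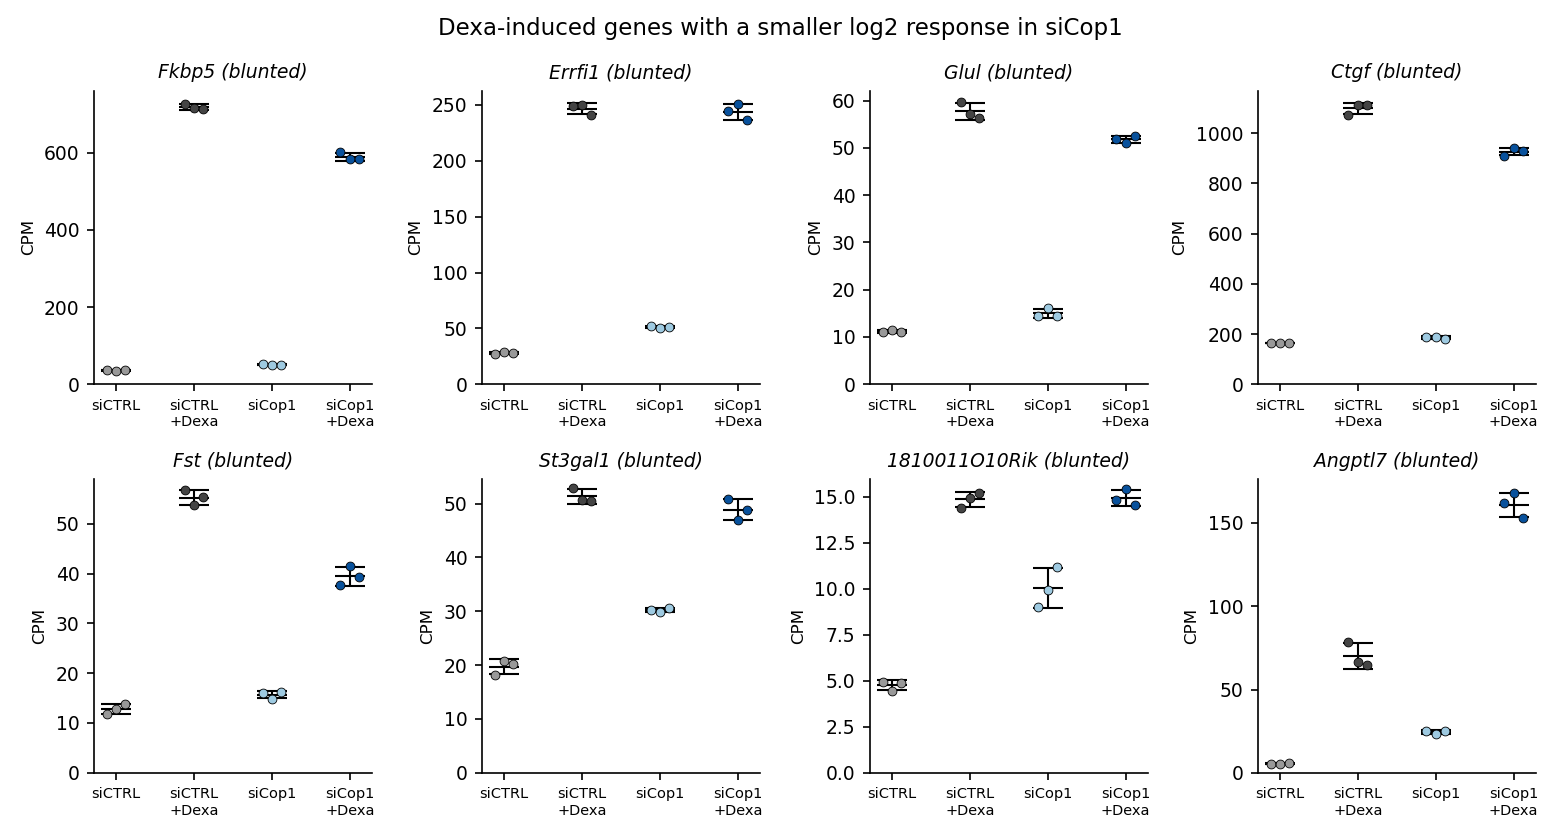
Levels in CPM of 8 Dexa-induced genes in the 12 libraries, with points for libraries and bars for the mean ± SD (n = 3); every axis starts at 0. For Fkbp5, Ctgf, Fst and Glul the siCop1 level is above siCTRL without Dexa and below it with Dexa, for Errfi1, St3gal1 and 1810011O10Rik the arms meet with Dexa, and Angptl7 is higher in siCop1 in both states.

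Among other secreted proteins Figf, a vascular endothelial growth factor, and Nbl1, a BMP antagonist, had terms of -0.24 and -0.26. The call of Figf was lost without siCop1 replicate 3 (0.0563), and that of Nbl1 without 8 of the 12 libraries in turn, with the highest adjusted p without siCop1 Dexa replicate 3 (0.0725).

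Other blunted induced genes were the exchange factor Vav2 (-0.39), the focal adhesion proteins Tes (-0.39) and Lims2 (-0.56), and the actin regulator Enah (-0.27). None of 19 tested contractile genes and SRF targets had a called term. Blunted genes of nuclear proteins were Klf5 (-0.74), Csrnp1 (-0.59), Tox (-0.58), Tle1 (-0.52), Hopx (-0.41), the vitamin D receptor Vdr (-0.38), Tob2 (-0.30) and Nfil3 (-0.22). Klf5 (adjusted p = 0.0123, edgeR) was the only call among 15 tested genes of adipogenesis. Its call was lost without siCTRL replicate 1 (0.0527) or siCop1 replicate 2 (0.0507) or 3 (0.0512), and without both siCTRL replicate 1 libraries (0.0627). Nfil3 (adjusted p = 0.0278) was the only call among 19 clock genes. It was lost without siCTRL replicate 1 or 2, siCop1 replicate 1, 2 or 3, or siCop1 Dexa replicate 1 or 3, and without both siCTRL replicate 1 libraries (adjusted p of 0.0516 to 0.0958 in all), and with no filter on low counts (0.0592). Of the other genes of this paragraph, Csrnp1 lost its call without 1 library, Enah without 2, and Lims2 and Vdr each without 7. The highest adjusted p came without siCop1 replicate 2 for Csrnp1 (0.0507), siCop1 replicate 3 for Enah (0.0628), and siCop1 replicate 1 for Lims2 (0.216) and Vdr (0.137). Lims2 also lost its call in DESeq2 (0.0644) and in a fit on the 12 libraries alone (0.0544).

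The sialyltransferase St3gal1 rose from 18.1, 20.8 and 20.2 to 52.8, 50.7 and 50.5 CPM in siCTRL and from 30.2, 29.8 and 30.7 to 50.8, 47.0 and 48.7 CPM in siCop1. As with Errfi1, the arms were apart only without Dexa, and the term was -0.69 ± 0.08 (adjusted p = 1.53e-06, edgeR). The RNA-editing enzyme Adarb1 (-0.38), the galactosyltransferase Ggta1 (-0.35), the sulfite oxidase Suox (-0.33), the pyruvate dehydrogenase phosphatase Pdp1 (-0.24) and the peroxidase Prdx6 (-0.21) had smaller terms. So did the phosphatidate phosphatase Lpin3 (-0.38), the potassium channel Kcnj15 (-0.52), the intracellular cation channel Tmem38b (-0.46) and the lipid transporter Mfsd2a (-0.63). The largest blunted induced term was that of the gene listed as 1810011O10Rik, at -1.06 ± 0.11 (adjusted p = 9.88e-07, edgeR). Other blunted induced genes were Akap1, Cd34, Ddit4, Dlk2, Fam180a, Layn, Map3k6, Prickle1 and Zfp36, with terms from -0.60 to -0.24. Leaving out 1 library ended calls here too. Akap1 and Suox each lost the call without 1 library, Map3k6 without 3, Mfsd2a without 4 and Zfp36 without 5 in turn. Kcnj15 lost it without 6, Dlk2, Lpin3 and Prdx6 each without 7, Pdp1 without 8 and Prickle1 without 9. The highest adjusted p came without siCop1 replicate 3 for Akap1 (0.0716), Map3k6 (0.138), Pdp1 (0.138), Prdx6 (0.122) and Suox (0.0786). It came without siCTRL replicate 1 for Kcnj15 (0.104), Mfsd2a (0.0957) and Prickle1 (0.135), without siCop1 replicate 1 for Dlk2 (0.0812) and Zfp36 (0.106), and without siCop1 replicate 2 for Lpin3 (0.0841). In the fit on the 12 libraries alone the calls of Kcnj15 (0.0512), Map3k6 (0.0509), Pdp1 (0.0793) and Prdx6 (0.0614) were lost, and in DESeq2 that of Prickle1 (0.0881).

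Of the 43 blunted induced genes, 26 were higher in siCop1 without Dexa and 4 lower, where 12.8% and 16.6% of all genes tested were. With Dexa 7 were higher and 26 lower, against 14.4% and 16.7%. These siCop1 effects share their libraries with the term and with the Dexa effects that formed the class, so nothing is read from the shares.

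Among the 21 Dexa-repressed, blunted genes, the largest term belonged to Nptx1, a secreted neuronal pentraxin. It fell from 10.9, 11.4 and 11 to 3.46, 3.11 and 3.07 CPM in siCTRL, and from 37.7, 35.5 and 36.6 to 26.5, 22.8 and 27.1 CPM in siCop1. The siCop1 level was higher in every library of both states, and the term was 1.26 ± 0.15 (adjusted p = 4.09e-06, edgeR). Grem1, a BMP antagonist, fell from 177, 176 and 182 to 54.5, 60.7 and 58.9 CPM in siCTRL, and from 238, 250 and 253 to 99.5, 103 and 108 CPM in siCop1. Its term was 0.37 ± 0.06 (adjusted p = 0.00161, edgeR), although the loss in CPM was larger in siCop1.

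The R-spondins Rspo2 (0.20) and Rspo3 (0.32), secreted enhancers of Wnt signalling, and Lgr4 (0.36), a receptor for them, were repressed and blunted as well. Both R-spondins were lower in siCop1 without Dexa: Rspo3 stood at 196, 197 and 200 CPM in siCTRL against 110, 112 and 116 CPM, and with Dexa at 66.4, 67.8 and 67.5 CPM against 47.1, 50.6 and 45.9 CPM. The call of Rspo3 (adjusted p = 0.0108, edgeR) was lost without siCTRL replicate 3 (0.0502), siCop1 Dexa replicate 2 (0.0685) or both siCTRL replicate 1 libraries (0.051). Rspo2 (adjusted p = 0.00855) lost its call without siCTRL replicate 2 (0.0577) or siCTRL Dexa replicate 3 (0.0515). Lgr4 (adjusted p = 0.0208) lost its call without any 1 of 6 libraries (siCTRL replicates 2 and 3, siCTRL Dexa replicate 1, siCop1 replicate 1, siCop1 Dexa replicates 1 and 3), at 0.0529 to 0.103.

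The ETS factors Etv4 and Etv5, known substrates of Cop1 as proteins, had terms of 0.36 ± 0.08 (adjusted p = 0.0176, edgeR) and 0.39 ± 0.09 (adjusted p = 0.0241). Etv5 was at 27.1, 26.9 and 25.2 CPM in siCTRL, 12, 11.6 and 12.4 CPM with Dexa, 16.4, 17.3 and 17.7 CPM in siCop1 and 9.43, 10.1 and 10.9 CPM with both, so every siCop1 library was below every siCTRL library of the same state. They were the only calls, both above 0, among 20 tested genes of ERK feedback and targets, beside 0.670% of all genes. Dexa lowered 14 of the 20 in siCTRL and 15 in siCop1, beside 14.1% and 11.6% of all genes. Etv4 lost its call without siCTRL replicate 2 or 3, siCTRL Dexa replicate 2, siCop1 replicate 3 or siCop1 Dexa replicate 1 or 3 (0.0666 to 0.0978). Etv5 lost it without any 1 of 8 libraries (siCTRL replicates 1 and 2, siCTRL Dexa replicates 1 and 2, siCop1 replicates 1 and 2, siCop1 Dexa replicates 2 and 3; 0.0507 to 0.132). It also lost it in DESeq2 (0.0963), in a fit on the 12 libraries alone (0.0551) and without both siCTRL replicate 1 libraries (0.151).

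The other blunted repressed genes included signalling proteins: Il17rd, an inhibitor of FGF signalling (0.49), the serotonin receptor Htr1b (0.45), the activin subunit Inhbb (0.32), the lipid receptor S1pr1 (0.30), the ephrin Efnb2 (0.27) and Lrig1, a negative regulator of growth factor receptors (0.24). The homeobox genes Hoxd11 (0.37) and Hoxa10 (0.23), the protocadherin Pcdh18 (0.45), the glutamate transporter Slc1a3 (0.26), Evi2a (0.57) and Sytl2 (0.28) followed. The rule for named genes also took Clic5, an intracellular chloride channel protein (0.86 ± 0.19, adjusted p = 0.019, edgeR), and the heparan sulfate enzyme Ndst3 (0.62 ± 0.15, adjusted p = 0.0418). Clic5 lost its call without any 1 of 6 libraries (siCTRL replicate 3, siCTRL Dexa replicates 1 and 3, siCop1 replicate 1, siCop1 Dexa replicates 1 and 3; 0.0504 to 0.122) and without both siCTRL replicate 1 libraries (0.122). Ndst3 lost it without any 1 library other than siCTRL replicate 1 or siCTRL Dexa replicate 3 (0.0515 to 0.17), without both siCTRL replicate 1 libraries (0.18) and in DESeq2 (0.108). Of the others, Hoxa10 lost its call without 1 library, and Inhbb and S1pr1 each without 2 in turn. Il17rd lost it without 6, Efnb2 and Lrig1 each without 8, and Sytl2 without 10. The highest adjusted p with 1 library left out came without siCTRL Dexa replicate 1 for Htr1b (0.234), Il17rd (0.0953) and Lrig1 (0.119). For Inhbb it came without siCop1 Dexa replicate 1 (0.0741). It came without siCTRL Dexa replicate 3 for S1pr1 (0.0524), without siCTRL replicate 3 for Efnb2 (0.151), and without siCTRL replicate 2 for Sytl2 (0.114) and Hoxa10 (0.0577). Htr1b lost its call without any 1 of 10 libraries, with RLE scaling (0.0573), in DESeq2 (0.0644) and in the fit on the 12 libraries alone (0.096), and Lrig1 with no filter on low counts (0.0824).

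Among the lost responses the smallest adjusted p belonged to Dkk2, a secreted modulator of Wnt signalling. It fell from 49.7, 51.8 and 53.3 to 22.8, 23.8 and 22.8 CPM in siCTRL. In siCop1 it stood at 93.4, 88.8 and 98.1 CPM without Dexa and at 93.7, 96.8 and 97.9 CPM with it, and the groups overlapped. The log2 effect was -1.16 ± 0.06 in siCTRL and 0.04 ± 0.05 in siCop1, and the term was 1.20 ± 0.08 (adjusted p = 2.28e-11, edgeR). With Grem1 and Fst it was 1 of 3 calls among a list of 21 tested Wnt and BMP modulators, 2 above 0 and 1 below, beside 0.670% of all genes. The list does not hold Rspo2, Rspo3, Lgr4, Wnt5a, Nbl1 or Rgmb, which were called and have roles in the same pathways.

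Fgf10, a fibroblast growth factor, fell from 35.0, 36.1 and 37.7 to 23.1, 24.5 and 23.3 CPM in siCTRL. In siCop1 it was at 27.4, 27.4 and 27.2 CPM without Dexa and 25.4, 27.2 and 24.1 CPM with it, already below every siCTRL library without Dexa. Its term was 0.52 ± 0.09 (adjusted p = 0.00192, edgeR). Wnt5a, a Wnt ligand, was alike: it fell from 83.6, 85.8 and 91.5 to 57.1, 60.6 and 58.2 CPM in siCTRL. It stood at 70.8, 68.0 and 71.1 against 63.1, 65.6 and 62.3 CPM in siCop1 (term 0.43 ± 0.08, adjusted p = 0.00556, edgeR). Every siCop1 library with Dexa was thus below every one without it, but this fall of Wnt5a did not pass the test. The other genes whose repression was lost were Pik3r5 (0.38), Sned1 (0.27), Synpo (0.27) and Plekha6 (0.88 ± 0.21, adjusted p = 0.0433, edgeR). Plekha6 lost its call without any 1 of 11 libraries, all but siCop1 replicate 2 (0.0523 to 0.154), without both siCTRL replicate 1 libraries (0.113) and in DESeq2 (0.067). The calls of Pik3r5, Sned1 and Synpo were lost without 9, 10 and 8 libraries in turn, with the highest adjusted p without siCop1 Dexa replicate 1 (0.171), siCTRL replicate 2 (0.165) and siCTRL replicate 3 (0.104). Pik3r5 also lost it in DESeq2 (0.0906) and in the fit on the 12 libraries alone (0.0637), and Sned1 with RLE scaling (0.0503).

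Induction was lost for 6 genes. Ptgis, prostacyclin synthase, rose from 15.7, 13.6 and 12.8 to 21.6, 19.7 and 20.3 CPM in siCTRL and was at 15.5, 14.5 and 15.6 against 14.2, 14.4 and 14.3 CPM in siCop1 (term -0.63 ± 0.10, adjusted p = 0.000351, edgeR). Lmcd1, a LIM-domain regulator of transcription, rose from 20.5, 20.7 and 20.4 to 32.1, 32.1 and 32.8 CPM in siCTRL and was at 14.4, 13.9 and 11.4 against 14.3, 14.5 and 15.3 CPM in siCop1 (term -0.51 ± 0.09, adjusted p = 0.00151). F2r, the thrombin receptor (-0.28), and Cyr61, a matricellular relative of Ctgf (-0.23, adjusted p = 0.00746), had low Dexa effects in siCTRL of 0.27 and 0.22. Ctgf and Cyr61 were the only calls among 31 matrix and elastic fibre genes. The 2 largest terms, of Tmod1 (-1.41 ± 0.32, adjusted p = 0.0262) and Rprm (-0.87 ± 0.20, adjusted p = 0.0254), rest on levels of at most 2.22 and 9.19 CPM. Tmod1 lost its call without siCTRL replicate 2 or 3, siCop1 replicate 2, or siCop1 Dexa replicate 1 or 3 (0.0641 to 0.129). Its exons overlap those of Tstd2 on the other strand, which was at a mean of 48.0 CPM, and the strand setting of the counting is not given, so the reads of Tmod1 are uncertain. Rprm lost its call without siCTRL replicate 2, siCTRL Dexa replicate 1, siCop1 replicate 1 or 3, or siCop1 Dexa replicate 2 or 3 (0.0562 to 0.122) and without both siCTRL replicate 1 libraries (0.0705).

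The promoters of Dkk2 and Cyr61 are shown as the pair of lost responses in opposite directions, at chr3:132085042-132085341 (plus strand) and chr3:145649936-145650235 (minus strand, RefSeq symbol Ccn1; GRCm38.p6 for both). Capitals mark a TATA box (TATAAA) with its first base at -32 in Dkk2 and at -25 in Cyr61, and in Cyr61 a TEAD site on the other strand (GGAATG, read here as CATTCC) with its first base at -103.
Dkk2: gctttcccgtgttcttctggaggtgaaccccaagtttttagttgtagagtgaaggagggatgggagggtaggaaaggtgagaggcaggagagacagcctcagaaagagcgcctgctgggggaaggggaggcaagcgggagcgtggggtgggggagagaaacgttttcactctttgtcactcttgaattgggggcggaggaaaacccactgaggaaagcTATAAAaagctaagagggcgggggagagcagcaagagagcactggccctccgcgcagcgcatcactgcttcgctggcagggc
Cyr61: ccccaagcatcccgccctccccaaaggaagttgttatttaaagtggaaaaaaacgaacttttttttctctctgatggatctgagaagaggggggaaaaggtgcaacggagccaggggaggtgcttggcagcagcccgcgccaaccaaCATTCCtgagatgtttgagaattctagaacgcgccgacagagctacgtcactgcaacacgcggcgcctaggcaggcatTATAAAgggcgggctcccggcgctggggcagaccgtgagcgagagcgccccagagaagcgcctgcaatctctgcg

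Dexa acted in opposite directions in 3 genes. Stc2, a secreted stanniocalcin, rose from 23.8, 24.5 and 21.9 to 33.4, 31.3 and 32.2 CPM in siCTRL and fell from 45.2, 41.6 and 47.1 to 33.8, 36.6 and 34.7 CPM in siCop1. The arms were far apart without Dexa and close with it. Its term was -0.81 ± 0.07 (adjusted p = 4.17e-08, edgeR). Spp1, the matrix phosphoprotein osteopontin, rose from 116, 103 and 109 to 119, 121 and 126 CPM in siCTRL and fell from 175, 170 and 179 to 153, 161 and 150 CPM in siCop1 (term -0.33 ± 0.06, adjusted p = 0.00484, edgeR). Chst2, a sulfotransferase, fell from 27.6, 25.0 and 27.0 to 21.8, 22.9 and 23.8 CPM in siCTRL and rose from 16.0, 16.0 and 17.5 to 18.9, 18.5 and 18.7 CPM in siCop1 (term 0.40 ± 0.08, adjusted p = 0.00849, edgeR). Without both siCTRL replicate 1 libraries the term of Chst2 was 0.32 and its adjusted p 0.12.

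The response was larger in siCop1 for 10 induced genes and 1 repressed gene. Tll1, a protease of the procollagen C-proteinase family, rose from 15.5, 17.6 and 17.4 to 18.5, 22.7 and 20.5 CPM in siCTRL and from 13.9, 13.8 and 15.4 to 28.2, 29.6 and 29.0 CPM in siCop1. With Dexa every siCop1 library was above every siCTRL library, and without it below. Its term was 0.73 ± 0.10 (adjusted p = 0.000108, edgeR). Cftr, a chloride channel, rose from 62.6, 68.9 and 68.7 to 125, 143 and 142 CPM in siCTRL and from 40.9, 41.4 and 41.8 to 121, 125 and 123 CPM in siCop1 (term 0.54 ± 0.08, adjusted p = 0.000166, edgeR). Dtx4, a ubiquitin ligase of the Deltex family, rose from 18.3, 20.1 and 18.6 to 28.0, 28.4 and 31.1 CPM in siCTRL and from 17.8, 17.5 and 18.3 to 41.2, 39.7 and 41.5 CPM in siCop1 (term 0.57 ± 0.08, adjusted p = 0.000185).

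In 3 more genes the larger fold in siCop1 went with a lower level in both states. Ace, the angiotensin-converting enzyme, rose from 15.4, 13 and 14.1 to 64.3, 61.6 and 58.5 CPM in siCTRL and from 5.40, 5.60 and 6.49 to 38.2, 37.9 and 37.3 CPM in siCop1. The fold change was 4.34 in siCTRL and 6.5 in siCop1, a term of 0.58 ± 0.10 (adjusted p = 0.0012, edgeR), but the gain in CPM was smaller in siCop1, at 32.0 against 47.3. The cysteine dioxygenase Cdo1 (term 0.44) and the secreted pentraxin Ptx3 (0.36) had the same order. Over the 99 genes, 88 kept the sign of the term when Dexa effects were taken as differences of mean CPM. The 11 that did not were the blunted Angptl7, Kcnj15, Lpin3, Nptx1, Clic5, Evi2a and Grem1 and the enhanced Ace, Cdo1, Ptx3 and Lbh. Lbh, a regulator of transcription, was the 1 repressed gene of this class, with a term of -0.41 ± 0.08 (adjusted p = 0.00484, edgeR). It fell from 88.2, 82.8 and 78.2 to 44.6, 43.8 and 43.0 CPM in siCTRL and from 51.6, 52.1 and 51.4 to 20.9, 20.0 and 20.6 CPM in siCop1.

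The lipid phosphatase Plpp3 (0.36), Txnip, an inhibitor of thioredoxin (0.22), and the adaptor Tom1l1 (0.45) completed the enhanced class with Mgll, monoacylglycerol lipase. Mgll (0.66 ± 0.14, adjusted p = 0.019, edgeR) lost its call without any 1 of 7 libraries (siCTRL replicates 1 and 3, siCTRL Dexa replicate 1, siCop1 replicates 2 and 3, siCop1 Dexa replicates 1 and 3; 0.0517 to 0.135) and without both siCTRL replicate 1 libraries (0.275). Txnip lost its call without 5 libraries in turn, with the highest adjusted p without siCTRL Dexa replicate 3 (0.0934), and Tom1l1 without 6, with the highest without siCTRL replicate 2 (0.1).

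A response was gained in 8 genes. Pfkfb3, which makes the activator of glycolytic phosphofructokinase, was at 33.0, 33.4 and 34.1 against 34.0, 35.7 and 37.4 CPM with Dexa in siCTRL. It rose from 27.1, 26.1 and 25.4 to 37.8, 37.6 and 36.8 CPM in siCop1 (term 0.42 ± 0.06, adjusted p = 0.000166, edgeR). Enpp2, the enzyme autotaxin (0.32 ± 0.07, adjusted p = 0.0162), had a like pattern, but lost its call without siCTRL replicate 3, siCTRL Dexa replicate 1, siCop1 replicate 1 or 2, or siCop1 Dexa replicate 2 (0.0507 to 0.0765) and without both siCTRL replicate 1 libraries (0.0663). Itga6, an integrin subunit, was at 76.6, 79.8 and 77.7 against 68.0, 75.0 and 74.5 CPM with Dexa in siCTRL, and fell from 98.7, 98.4 and 101 to 72.2, 75.2 and 76.2 CPM in siCop1 (term -0.31 ± 0.06, adjusted p = 0.00854, edgeR). Itga6, the BMP co-receptor Rgmb (-0.33) and the sialyltransferase St3gal4 (-0.26) were all higher in siCop1 without Dexa, and Cdc42ep3, an effector of Cdc42 (-0.30), was lower. In Itga6 and Rgmb the arms overlapped with Dexa.

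Foxa1, a forkhead factor of epithelial lineages, had a term of 1.30 ± 0.26 (adjusted p = 0.00728, edgeR) at low levels. It was at 4.11, 3.45 and 4.21 against 3.93, 3.46 and 3.71 CPM with Dexa in siCTRL, and rose from 1.64, 2.25 and 2.02 to 4.57, 4.63 and 4.55 CPM in siCop1. The summed level of 7 airway or gland epithelium markers was 15.7 to 28.8 CPM in siCTRL, 14.7 to 25.9 CPM with Dexa, 18.5 to 37.7 CPM in siCop1 and 36.5 to 58.5 CPM with both, with Scgb1a1 at 0 in 9 of the 12 libraries. Most of that sum was Cyp2f2, at 8.38 to 16.5 CPM in siCTRL and 22.1 to 44.4 CPM with both. Pigr was also higher with both (2.27 to 5.88 CPM) than in siCTRL (0.289 to 1.07 CPM). So were Epcam and Muc1. For Cdh1 the ranges overlapped, at 1.85 to 3.81 CPM in siCTRL and 1.88 to 3.76 CPM with both. Those of Foxj1 overlapped too. Within siCop1, where Foxa1 rose with Dexa, the ranges without and with Dexa overlapped for every marker of the list but Epcam. In siCop1 without Dexa, Cyp2f2 reached 26.4 CPM and Pigr 3.71 CPM. Epcam was at 0.298 to 0.846 CPM there and at 1.06 to 1.34 CPM with both. The part of such markers in the result for Foxa1 was not tested. Olfml2a had the largest term of all, at 1.68, but its levels were at most 1.66 CPM. Its call (adjusted p = 0.0304) was lost without any 1 of 10 libraries, all but siCop1 replicate 3 and siCop1 Dexa replicate 3 (0.0562 to 0.162), without both siCTRL replicate 1 libraries (0.112) and in a fit on the 12 libraries alone (0.0793).

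**Figure D3:**
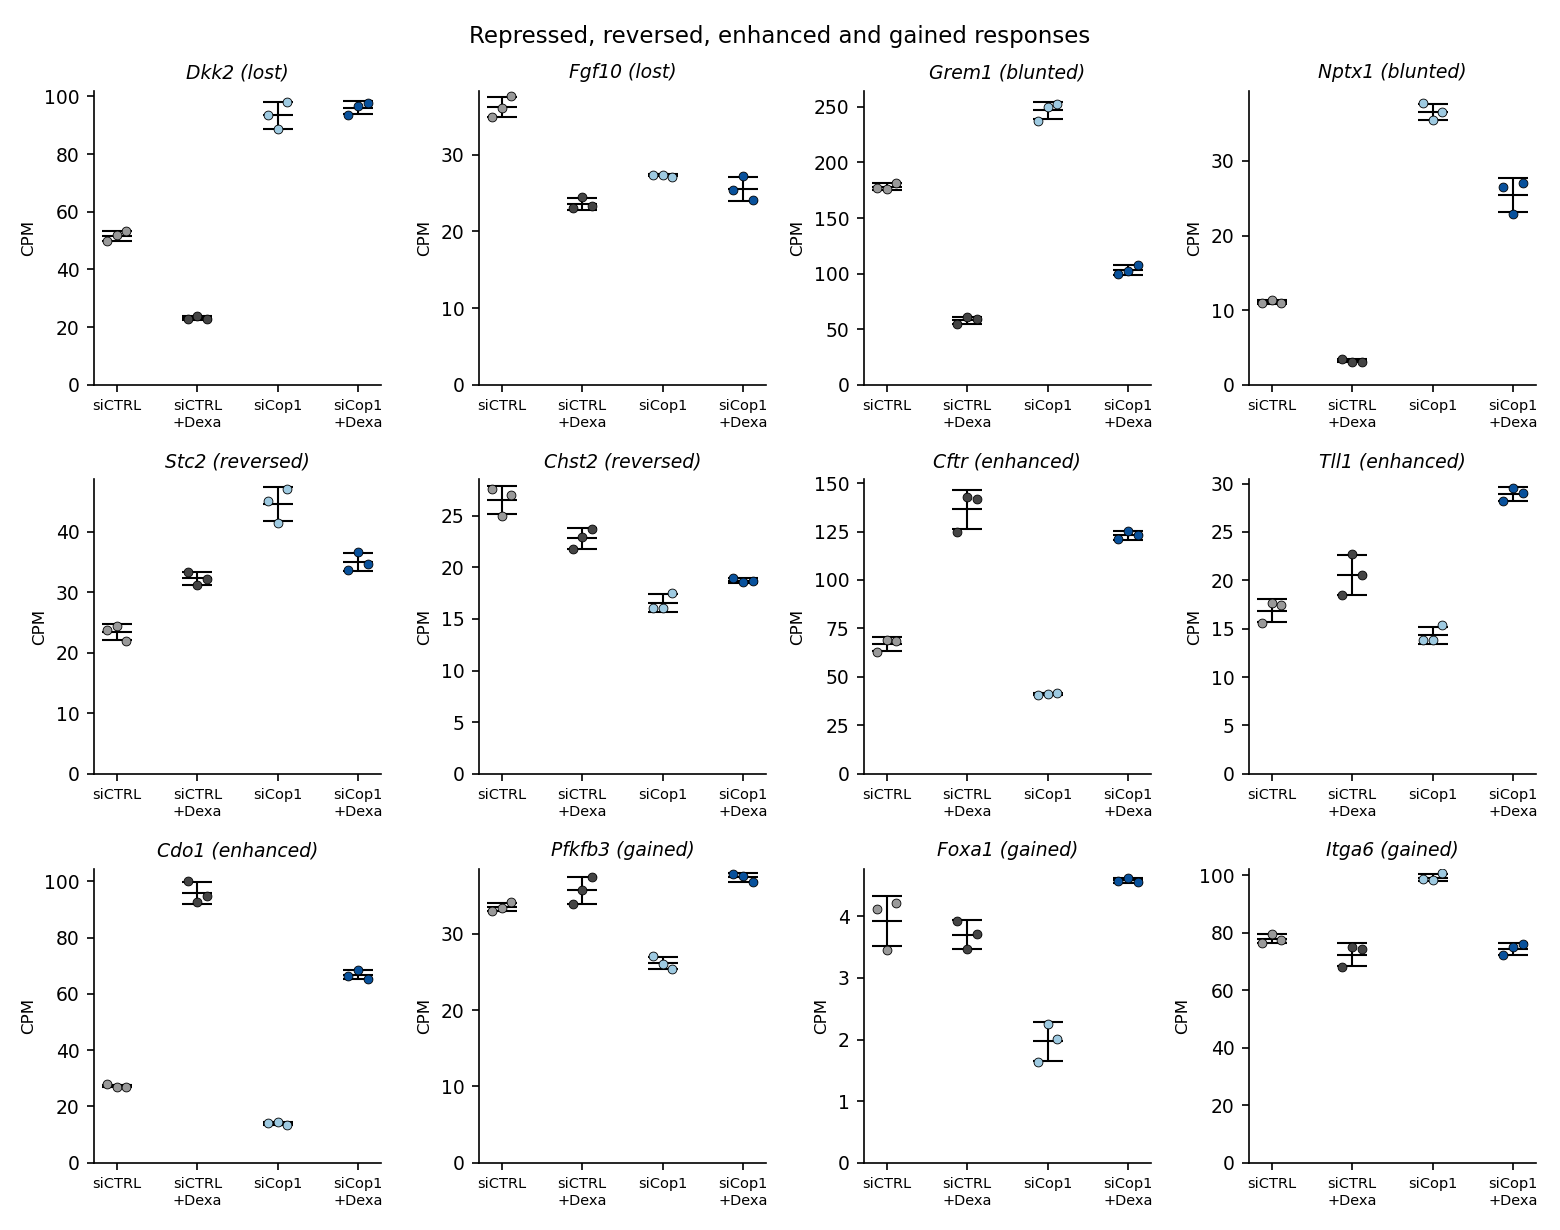
Levels in CPM of 12 genes from the other classes in the 12 libraries, with points for libraries and bars for the mean ± SD (n = 3); every axis starts at 0. Dkk2 falls with Dexa in siCTRL and not in siCop1, Stc2 and Chst2 move in opposite directions, Cftr, Tll1 and Cdo1 rise by a larger fold in siCop1, and the Dexa effect on Pfkfb3, Foxa1 and Itga6 passes the test in siCop1 alone.

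The same term was then measured in the 12 KL001 libraries, which share no sample with the DMSO term. Of the 99 genes, 98 (99%) had a KL001 term of the same sign, where 53.2% of all genes did. The exception was Nfil3, at 0.02 in KL001. The KL001 term was called with the same sign in 52 genes, where 0.562% of all genes tested were called in KL001. These are 52.5% of the DMSO calls and 62.7% of the 83 KL001 calls. By class they were 34 of the 64 blunted genes, 4 of the 13 lost, 2 of the 3 reversed, 8 of the 11 enhanced and 4 of the 8 gained. The median size of the term was 0.39 in DMSO, and signed by the DMSO term it was 0.32 in KL001. The genes were chosen on the DMSO value.

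The terms in KL001 were close to those in DMSO for the genes with the smallest adjusted p: -0.64 for Fkbp5 (adjusted p = 1.01e-09, edgeR), -0.79 for Errfi1 (7.53e-10), 1.11 for Dkk2 (1.93e-09) and -0.65 for Stc2 (3.24e-06). Among other genes called in KL001, the term there was 0.79 for Tll1 (5.02e-05), -0.71 for Glul (8.24e-06) and -0.67 for Fst (1.42e-05). For Ace it was larger in KL001, at 0.96 (4.67e-06) against 0.58 in DMSO. In others the KL001 term did not pass the test: 0.34 for Foxa1 (adjusted p = 0.864), 0.15 for Pfkfb3 (0.577), 0.26 for Wnt5a (0.262), -0.36 for Ptgis (0.18), -0.16 for Lbh (0.691) and -0.10 for Cyr61 (0.578). The difference between the KL001 and DMSO terms was called for 0 genes in edgeR, with 582 under an unadjusted p of 0.05, and for 0 genes in DESeq2. Without the filter on low counts edgeR called it for 30 genes. Of the 83 KL001 calls, 31 were not called in DMSO, and all 83 had the same sign there. Among those 31, the secreted protein Ccbe1 had a term of -1.0 in KL001 and -0.62 in DMSO (adjusted p = 0.153), and the ERK phosphatase Dusp5 -0.52 and -0.35 (0.174).

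**Figure D4:**
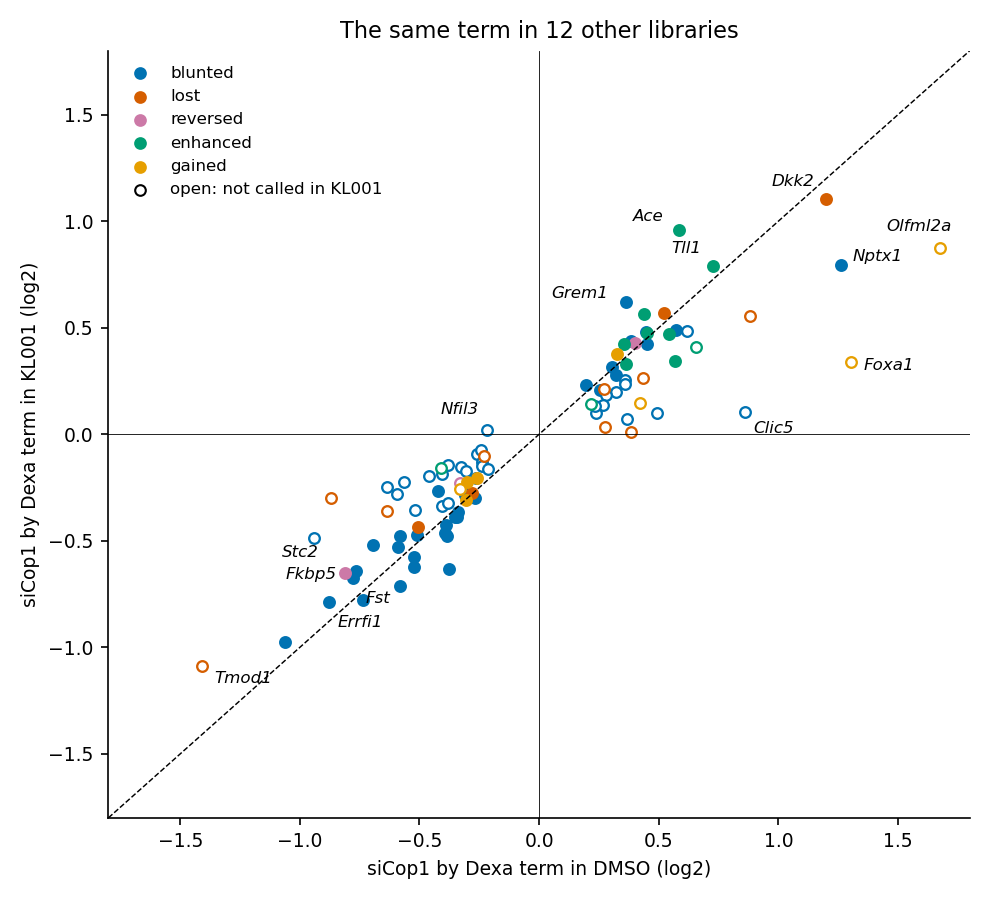
The term of each of the 99 genes in DMSO (horizontal, log2) against the same term in KL001 (vertical, log2), coloured by class; filled points were also called in KL001 and the dashed line marks equal terms. All points but Nfil3 lie in the quadrants of equal sign, and Foxa1 and Clic5 are among those far below the line.

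Genes that responded to Dexa in both KL001 arms, chosen without the DMSO libraries, were also described. This choice leaves out genes with a response under 2-fold in either KL001 arm, so it does not describe the Dexa response as a whole. Of 245 genes raised at least 2-fold by Dexa in both KL001 arms, the median log2 effect in DMSO was 1.72 in both siCTRL and siCop1. It was smaller in siCop1 for 142 of them and larger for 103, and the term was called for 20, with 15 smaller and 5 larger. Of 41 genes lowered at least 2-fold in both KL001 arms, the median was -1.41 in siCTRL and -1.27 in siCop1. The effect was smaller in size for 25 and larger for 16, and all 4 called terms were smaller.

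Of the 99 calls, 52 held at an adjusted p of 0.05 in every refit other than the one chosen after seeing the data. They were 28 blunted, 7 lost, 3 reversed, 8 enhanced and 6 gained genes. The refits were RLE scaling, no low-count filter, DESeq2, the 12 libraries alone, the replicate number as a block, and each library left out. The adjusted p of 0.01, the differences of CPM and the cut at terms of at least 0.5 do not enter this count. The other 47 of the 99 lost the call without at least 1 of the 12 libraries, and 15 of them did so in another refit too. Those named here are drawn open in the plot of terms by gene. With both siCTRL replicate 1 libraries left out, 26 of the 99 lost the call, among them Chst2 and Tmem38b of the 52. Just inside the threshold were Ndst3, Plekha6 and Htr1b (adjusted p of 0.0418, 0.0433 and 0.044, edgeR). Just outside were Xdh (term -0.71, adjusted p = 0.0504), Net1 (-0.20, 0.0508) and Marcks (0.20, 0.0508). Exons of Dlk2, Lrig1, Sned1 and Tom1l1 overlap those of a tested gene on the other strand with a mean of 7.34 to 24.5 CPM, so their reads are uncertain in the same way as those of Tmod1. So are, to the extent of partners at 0.315 to 3.24 CPM, those of Cdc42ep3, Ctgf, Fgf10, St3gal4, Tes and Txnip.

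**Figure D5:**
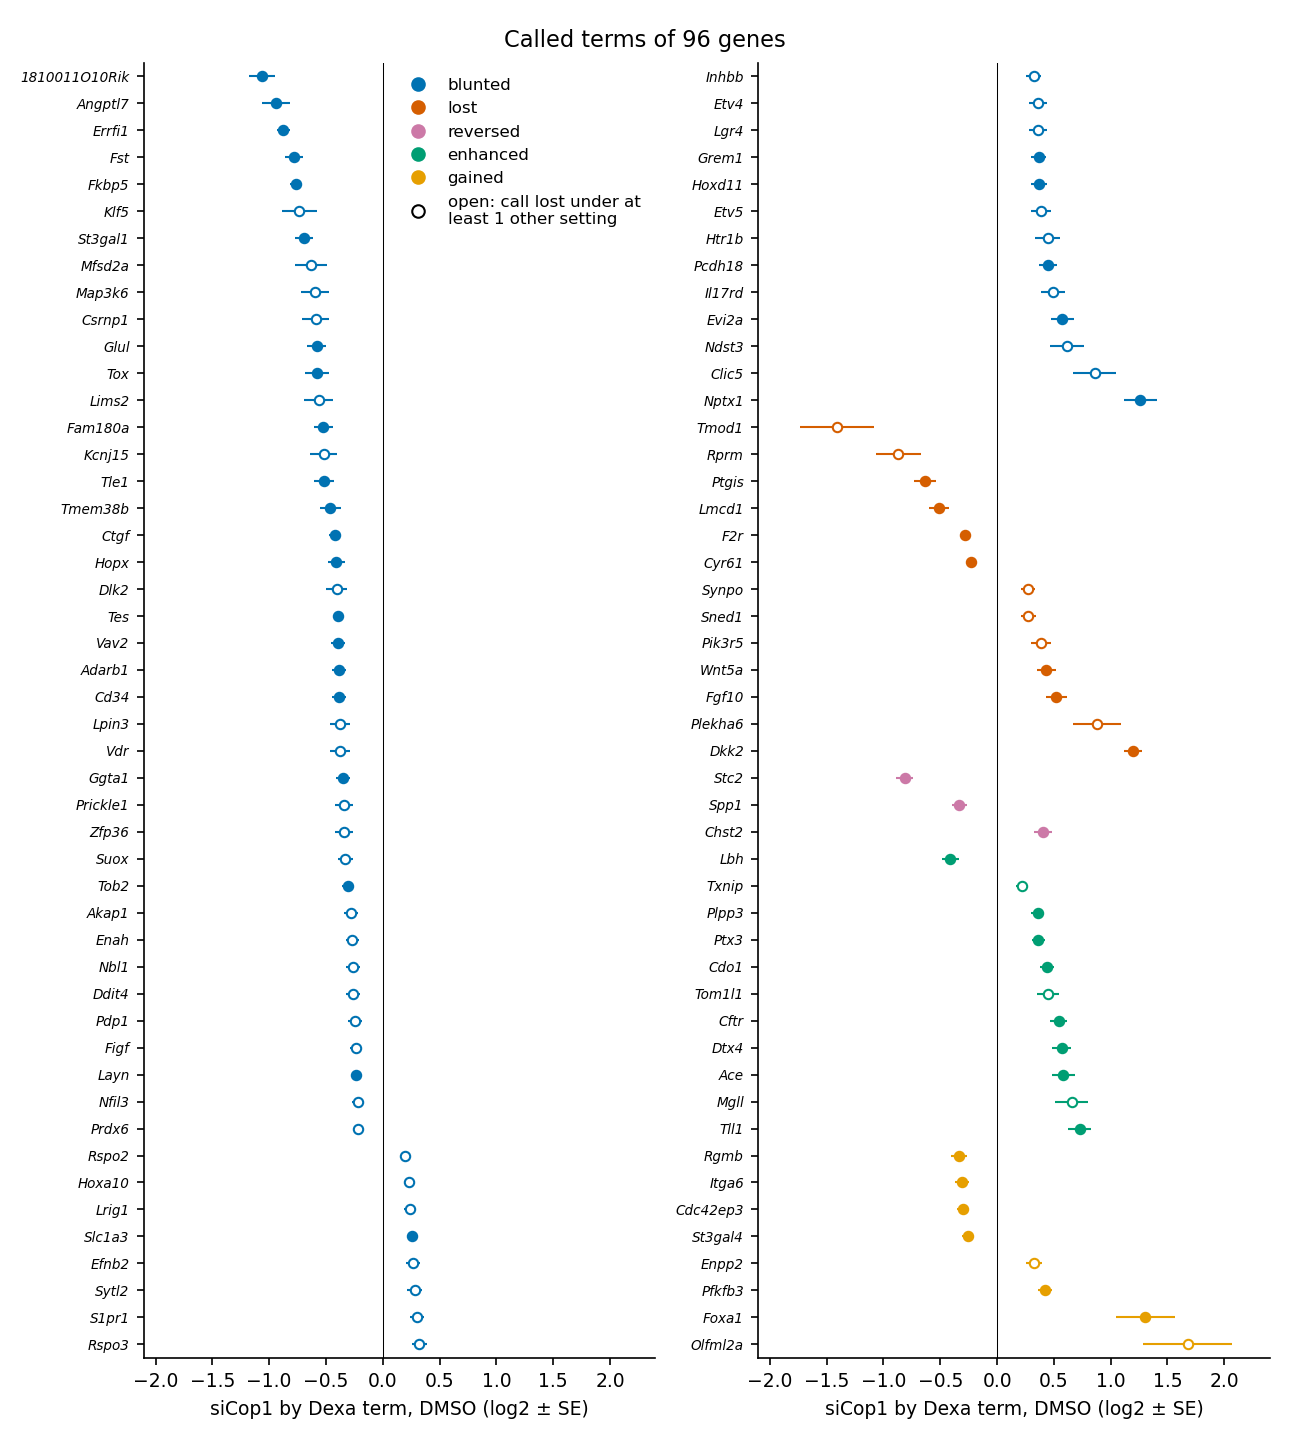
The siCop1 by Dexa term of 96 of the 99 genes in DMSO on the log2 scale (horizontal) with its SE, ordered by class and size and coloured by class. Filled points, 50 genes, kept the call at an adjusted p of 0.05 in every refit other than the one chosen after seeing the data. Open points, 46 genes, lost it in at least 1 of those refits.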

How the data were processed

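RNA of 24 libraries was sequenced from stranded mRNA libraries as single 50-base reads on 3 HiSeq lanes, per the labels' protocols. The submitters' processing notes name STAR 2.4.5a, Subread 1.4.6-p3 and the builds GRCm38 and mm10. The strand setting of the counting is not given in the sources used here. The authors deposited raw read counts per gene symbol, and these counts were the input of every test. Genes were kept with filterByExpr (minimum count 10, minimum total 15; 14772 of 47480), scaled by TMM factors, and modelled in edgeR 4.0.16 (R 4.3.3) by robust quasi-likelihood, with 1 mean for each of 8 groups. Each term is a contrast of 4 means, two-sided, with Benjamini-Hochberg adjustment over all genes tested. CPM values use the TMM scale. PCR copies were not told apart.

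The fit was tested on simulated data. Members and gene lists were chosen with earlier results of these data known. By rule, the text names the 3 largest terms per class and direction with a mean of at least 1 CPM (leaving out Gm, Rik and -ps symbols), list genes that were called, and Rfwd2. Other genes were named after their values were seen, to account for the members. Alternatives were RLE scaling, no low-count filter, DESeq2 1.42.0, a fit on the 12 libraries alone, the replicate number as a block, each library left out, an adjusted p of 0.01, differences of CPM and terms of at least 0.5. Leaving out both siCTRL replicate 1 libraries together was chosen after seeing the data. Of the 99 called genes, 3 enter the counts and are not reported here by name.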

Additional observations from a re-analysis of the deposited data

How the results depend on the processing

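No gene's log2 term changed sign among the 1880 values of the alternatives. Those at an adjusted p of 0.01 repeat the main fit and could not change. The others come from refits on mostly the same libraries, for genes chosen by their term in the main fit. Nothing is therefore read from the unchanged signs. As differences of mean CPM, 88 of the 99 kept the sign. The 99 calls became 104 with RLE scaling, 111 with DESeq2 and 97 in a fit on the 12 libraries alone. Without the filter on low counts there were 230 calls, with 116 terms above 0 and 114 below, 32 lost, 15 reversed, 23 enhanced and 64 gained responses, and 196 had the same sign in KL001; the difference between the KL001 and DMSO terms was then called for 30 genes. DESeq2 gave 21 lost responses, and the fit on the 12 libraries gave 5 reversed ones. At an adjusted p of 0.01 there were 56 calls, 23 above and 33 below 0, with 30 blunted and 7 enhanced responses; 56 had the same sign in KL001 and 27 were called there. Terms of at least 0.5 left 21 blunted, 7 lost, 1 reversed, 5 enhanced and 2 gained genes. The cause of these shifts was not tested, apart from the stricter cuts, which remove genes by construction. Leaving out 1 library gave 71 to 107 calls (67 to 86 of the 99 among them), 24 to 51 terms above 0 and 40 to 71 below. The classes then held 38 to 64 blunted, 9 to 18 lost, 2 to 4 reversed, 8 to 14 enhanced and 6 to 11 gained genes, 71 to 105 had the same sign in KL001 and 39 to 57 were called there. The replicate numbers did not pair the libraries: deviations of same-numbered libraries correlated at -0.159 to 0.0664, 0 of 18 pairs were above 0.1, and 3 of 12 libraries correlated best with their own number. With the replicate number as a block 97 genes were called, and Htr1b (adjusted p = 0.058, edgeR), Ndst3 (0.0537), Plekha6 (0.0595), Prickle1 (0.0617) and Sned1 (0.0612) were the calls lost. The SE of the term was 0.39 for Olfml2a, at a mean of 0.791 CPM, and 0.05 for Fkbp5, at 349 CPM.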
